A study of Mus musculus with 16 samples.

Results

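Treatment of MMTV-PyMT breast tumours with an antibody against PD-L1 was compared with vehicle in bulk tumour RNA. The comparison takes 4 anti-PD-L1 libraries and 4 vehicle libraries, 8 of the 16 in the series, chosen by their labelled treatment, and every gene listed at 1 FPKM or more in at least 4 of the 16 libraries, which left 15105 of 55146 genes to test. FPKM is the number of fragments per length of transcript and per total of mapped fragments. In the MMTV-PyMT transgenic mouse the mouse mammary tumour virus promoter drives polyoma middle T antigen in mammary epithelium. Tumours were taken from such mice at 12 weeks of age and reimplanted into the fat pad of the fourth mammary gland of FVB mice, so that the epithelium carried the transgene in every group and the host was FVB. The hosts then received vehicle, or anti-PD-L1 at 5 mg/kg in 2 doses a week, over 28 days. The other 8 libraries came from hosts given sonidegib, a Smoothened inhibitor, at 20 mg/kg daily, alone (4 libraries) or with the same antibody (4 libraries), and are used below only where a result on the antibody needs them. The labels name no donor tumour, litter or batch, so p-values measure the spread between these samples, and the numbers in the libraries' names run through the treatments in order, so that any effect of that order cannot be told apart from treatment.

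PD-L1, encoded by Cd274, is a surface protein of tumour and myeloid cells that binds PD-1 on T cells and restrains signalling from the T cell receptor. Antibodies against PD-L1 release that restraint, and a response in a tumour is usually read from T cell genes, from cytotoxic effectors such as granzyme B and perforin, and from genes that interferon-gamma induces, among them the chemokine Cxcl9 and the antigen presentation genes. PyMT tumours are epithelial tumours rich in macrophages.

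The libraries carried the markers of such a tumour. Over the 8 libraries the keratin gene Krt8 lay between 172 and 670 FPKM, the adhesion gene Epcam between 83.8 and 423 FPKM and the macrophage complement gene C1qa between 47.4 and 93.3 FPKM. The series text calls the model triple negative; the progesterone receptor gene Pgr was at 0.238 FPKM or less in the 8 libraries, Esr1 lay between 1.40 and 2.87 FPKM, and Erbb2 between 6.90 and 19.6 FPKM. RNA of skeletal muscle and fat was also present, unevenly. The summed FPKM of 11 muscle genes was 238, 13.6, 9.08 and 31.3 in vehicle libraries 1 to 4 and 87.6, 744, 38.9 and 5.07 in anti-PD-L1 libraries 1 to 4.

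Both libraries at the edges of the vehicle group bear on every result below. Vehicle 3 had the lowest FPKM of the 4 vehicle libraries for 80.7% of tested genes and listed 11361 genes at 1 FPKM or more, against 13107 to 14784 in the other 7. Vehicle 4 lay nearer to the anti-PD-L1 libraries (Spearman correlations across genes of 0.938 to 0.971) than to vehicle 1 to 3 (0.869 to 0.901), whereas vehicle 1 to 3 had correlations of 0.855 to 0.925 with the anti-PD-L1 libraries. The slope of expression on GC content went with the groups too. It was 4.55, 3.32, 3.69 and -0.513 in the vehicle libraries and -1.74, -1.99, 0.246 and 0.17 in the anti-PD-L1 libraries (exact permutation test, two-sided, p = 0.0857, adjusted p = 0.114 over 4 library measures). The files hold no counts; a depth estimated from the smallest steps between FPKM values was 34.5 M to 49.3 M fragments in vehicle and 46.6 M to 56.8 M in anti-PD-L1 libraries, and a single fragment of a transcript of 2 kb then counts for 0.00978 to 0.0161 FPKM.

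No gene passed the test between anti-PD-L1 and vehicle. With limma on log2(FPKM + 1), in 1 fit over the 4 treatment groups, 0 of 15105 genes (0%) had a Benjamini-Hochberg adjusted p under 0.05, and the lowest adjusted p was 0.158. At an unadjusted p under 0.05, 3550 genes (23.5%) were higher with the antibody and 162 (1.07%) were lower. The split moved with the scaling of the libraries. After median-of-ratios scaling, which equalises the libraries by their typical gene, 1726 genes (11.4%) were higher and 1841 (12.2%) lower, and the median difference of all tested genes moved from 0.30 to 0.01 on the log2 scale. Differences below are in log2(FPKM + 1), anti-PD-L1 minus vehicle, and "relative" means after subtracting the median of all tested genes; this scale understates the difference of genes at a low level.

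How many genes passed depended on which vehicle libraries were in the fit. Without vehicle 4, 3927 genes (26.0%) had an adjusted p under 0.05, 3785 of them higher with the antibody, and 5575 (36.9%) were higher at an unadjusted p under 0.05. Without vehicle 3, none did at an adjusted p under 0.05, and 1115 genes (7.38%) were higher at an unadjusted p under 0.05. When limma estimated a weight for each library, 2024 genes were called, 1832 of them higher, and 1902 of the genes called were also called without vehicle 4. Among the 8 libraries the weights were lowest for vehicle 3 (0.137) and vehicle 4 (0.346), so the 2 settings are not separate support. A count that needs no model is the number of genes whose 4 anti-PD-L1 values all lay above the 4 vehicle values: 512 (3.39%) did, 72 genes (0.477%) lay wholly below, and after scaling these were 468 (3.10%) and 481 (3.18%). On both scales 313 genes lay wholly above and 61 wholly below.

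Among the 12 genes with the lowest p on the higher side, Gk came first. It encodes glycerol kinase, which phosphorylates glycerol for triglyceride synthesis and glycolysis, and lies on the minus strand at chrX:85701937-85776819 (GRCm38, GENCODE M21). Gk was at 6.76, 6.43, 3.06 and 13.1 FPKM in vehicle libraries 1 to 4 and at 20.8, 16.5, 15.6 and 16.3 FPKM in anti-PD-L1 libraries 1 to 4, a difference of 1.26 (SE 0.29, adjusted p = 0.158). The lowest antibody value exceeded the highest vehicle value, vehicle 4. The mean was 7.34 ± 4.19 FPKM in vehicle and 17.3 ± 2.34 FPKM with the antibody (SD, n = 4 each). Below, a run of 8 values gives vehicle 1 to 4 and then anti-PD-L1 1 to 4, in FPKM.

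Alkal2, a secreted ligand of the receptor tyrosine kinases ALK and LTK (chr12:30884322-30893854, plus strand), had the largest difference of the 12 at 1.69 (SE 0.40, adjusted p = 0.158). Its vehicle values were 3.52, 0.419, 2.56 and 0.331 and its antibody values 4.53, 5.86, 4.04 and 16.3, with no overlap, although anti-PD-L1 4 was far above the other 3. After median-of-ratios scaling the groups overlapped through vehicle 3. Itprid1 was at 0.509, 1.06, 0.397 and 1.16 in vehicle and at 3.99, 2.75, 1.72 and 6.84 with the antibody, a difference of 1.35 (SE 0.34). The groups of Itprid1 did not overlap.

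Arhgef6, a guanine nucleotide exchange factor for Rac and Cdc42, was the most abundant of the 12, at 17.9, 22.4, 8.64 and 20.6 in vehicle and 59.9, 41.1, 34.3 and 28.0 with the antibody, a difference of 1.21 (SE 0.31). Ankrd22 had vehicle values of 5.35, 4.87, 2.12 and 5.87 and antibody values of 18.3, 9.46, 12.4 and 10.5, a difference of 1.32 (SE 0.32). Cdca7l, a relative of the Myc target Cdca7, was at 2.96, 1.63, 0.931 and 4.77 in vehicle and 7.98, 5.94, 5.09 and 6.98 with the antibody, a difference of 1.18 (SE 0.28). In each of these 3 genes all antibody libraries lay above all vehicle libraries.

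Ankrd49 differed by 1.14 (SE 0.29), also without overlap. In 4 of the 12 genes the groups overlapped, in each case through vehicle 4. They were Cdkal1, a tRNA methylthiotransferase (1.25, SE 0.30), Ttc37, a scaffold of the RNA-degrading Ski complex (1.32), Ptcd3, a mitochondrial ribosomal protein (1.35), and Ppp1r7, a regulator of protein phosphatase 1 (0.99). Cdkal1, for example, was at 3.53, 4.15, 1.62 and 8.55 in vehicle against 12.1, 11.7, 8.03 and 11.5 with the antibody. All 12 genes had an adjusted p of 0.158, and all 12 were called without vehicle 4 and with library weights. Of all genes 26.0% were called without vehicle 4, and 2024 of 15105 with weights. The 12 were chosen by their p in these same libraries, so their calls are no further support.

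The 12 genes with the lowest p on the lower side began with Apol7d, which GENCODE M21 lists under this symbol as an antisense RNA gene at chr1:71652837-71662843 on the plus strand. It was at 6.85, 7.12, 6.49 and 6.59 in vehicle and at 0.996, 4.73, 2.87 and 4.28 with the antibody, a difference of -0.99 (SE 0.27, adjusted p = 0.158). All 4 antibody libraries lay below a vehicle group that spanned less than 1 FPKM. The first bases of the locus overlap Fn1, the fibronectin gene on the other strand, and whether the quantification used strand is not given in the sources used here. Fn1 itself differed by -0.13 (SE 0.31).

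Lars2, the mitochondrial leucyl-tRNA synthetase, was at 905, 823, 1063 and 474 in vehicle and 288, 323, 451 and 407 with the antibody, a difference of -1.11 (SE 0.37). Erbb2, the receptor tyrosine kinase HER2, was at 15.1, 19.6, 10.4 and 9.99 in vehicle and 6.90, 8.40, 8.77 and 8.08 with the antibody, a difference of -0.67 (SE 0.22). Tmem184b was at 8.27, 10.3, 7.08 and 5.4 and then at 3.84, 4.45, 4.03 and 4.19, a difference of -0.74 (SE 0.21). No antibody value reached the vehicle range in these 3 genes, and vehicle 4 was the lowest vehicle library in each.

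Aldh1l1, which oxidises formyl-tetrahydrofolate in the folate cycle, was at 4.45, 7.96, 1.61 and 2.44 in vehicle and 0.381, 1.37, 1.14 and 0.648 with the antibody, a difference of -1.31 (SE 0.43). Plxnb1, the semaphorin receptor plexin B1, differed by -0.71 (SE 0.25), Nbeal2 by -0.70 (SE 0.21), Srcin1, an inhibitor of Src, by -0.64 (SE 0.23), and Ltbp3, which binds latent TGF-beta, by -0.79 (SE 0.29), all without overlap. The other 3 overlapped. Scarna3a, a small Cajal body RNA whose short transcript makes FPKM uncertain, differed by -1.46 (SE 0.48), the cadherin Celsr1 by -0.85 (SE 0.24) and the kinase gene Wnk4 by -0.66 (SE 0.24). All 12 had an adjusted p of 0.158. With library weights 12 were called, and without vehicle 4 there were 11, all but Wnk4. These 12 too were chosen by their p in the same libraries.

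**Figure D1:**
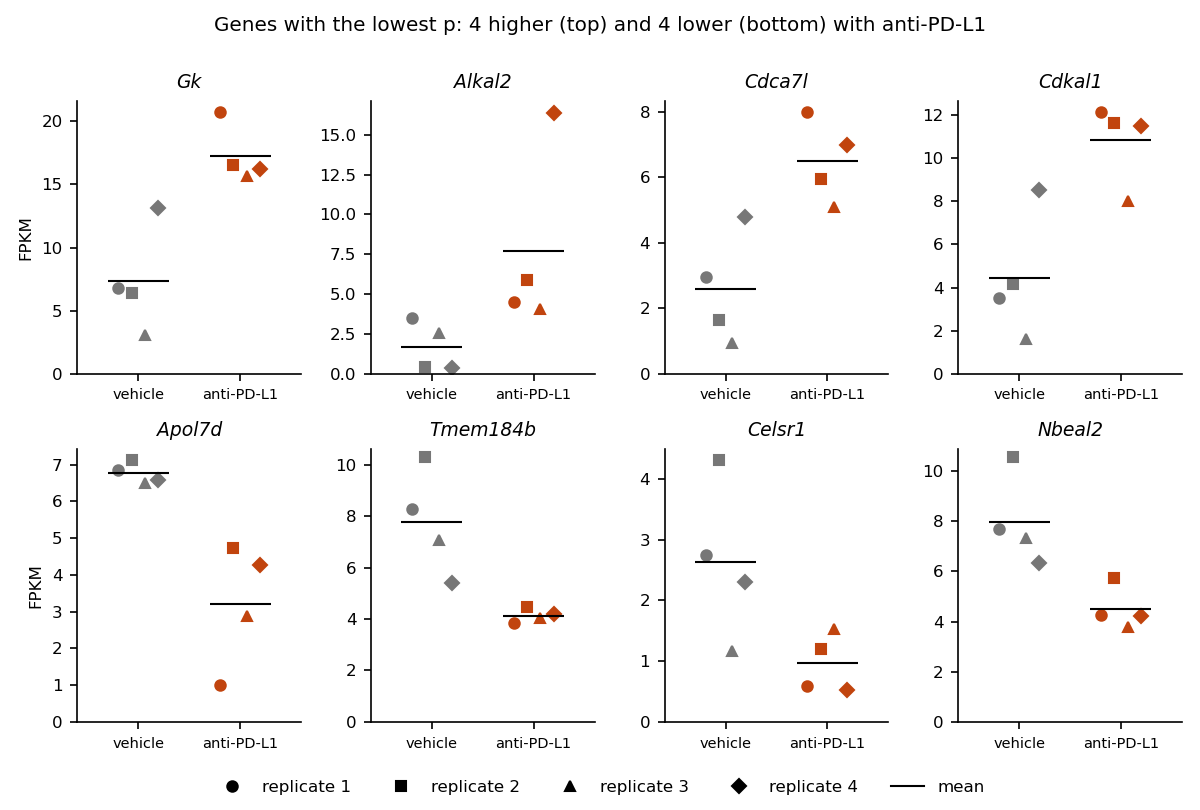
Each panel plots FPKM (vertical axis, from 0) in the 4 vehicle and 4 anti-PD-L1 libraries, 1 symbol per replicate, with a line at the mean, for the 4 genes with the lowest p on the higher side (top) and on the lower side (bottom). Cdkal1 overlaps between the groups through vehicle 4, and Celsr1 overlaps as well; in the other 6 panels the groups are apart, with Apol7d at 6.49 to 7.12 FPKM in vehicle and 0.996 to 4.73 FPKM with the antibody.

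GC content differed between the genes that were higher and the genes that were lower. The median transcript GC was 43.7% for the 12 higher genes and 57.9% for the 12 lower genes, and it was 44.2% over all genes higher at an unadjusted p under 0.05, 56.1% over those lower and 51.2% over the rest. When a GC and length trend was removed from each library, the median of the 12 higher genes relative to all genes went from 0.96 to 0.71, and that of the 12 lower genes from -1.07 to -0.69. Erbb2 then differed by -0.30, Apol7d by -1.37, Gk by 0.98 and Alkal2 by 1.78.

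The PD-1 pathway was read next. Cd274 itself was low, at 0.320, 0.577, 0.336 and 0.465 FPKM in vehicle and 0.671, 0.555, 0.689 and 0.668 FPKM with the antibody (exact permutation test, two-sided, p = 0.0571, adjusted p = 0.286 over 10 genes tested this way). In these unscaled values only the second antibody library fell within the vehicle range. Median-of-ratios scaling divided vehicle 3 by 0.467 and the antibody libraries by 1.02 to 1.14. Cd274 in vehicle 3 then lay above all 4 antibody values. The scaled sum of the 5 genes of PD-1 ligands and receptors was 4.11 to 6.53 in vehicle and 4.93 to 5.93 with the antibody. Pdcd1, which encodes PD-1, was at 0.292, 0.326, 0.201 and 0.387 in vehicle and 0.336, 0.255, 0.832 and 0.386 with the antibody (exact p = 0.343), and the groups overlapped throughout. Cd80, a costimulatory ligand that also binds PD-L1, was at 0.0524, 0.121, 0.00896 and 0.104 in vehicle and 0.252, 0.245, 0.216 and 0.315 with the antibody. All 4 antibody values were above all 4 vehicle values, which gives the smallest p that 4 against 4 libraries allow (exact p = 0.0286, adjusted p = 0.286).

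Genes that keep PD-L1 on the cell surface or direct its degradation gave no call at an adjusted p under 0.05 with all libraries. Cmtm6, which protects PD-L1 from lysosomal degradation, differed by 0.28 (SE 0.24) and by -0.11 after scaling. Of 18 genes on PD-L1 stability and trafficking, all tested, 2 were higher at an unadjusted p under 0.05, the casein kinase subunit Csnk2a1 (0.98, SE 0.30) and the endosomal GTPase Rab5a (1.10, SE 0.41), against 23.5% of all genes. None was lower, and the list's median was 0.20 where that of all genes was 0.30. After scaling 2 were higher and 3 lower at an unadjusted p under 0.05, and 1 lay wholly below vehicle.

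T cell genes were at low levels throughout. Of 23 T cell markers, 8 passed the filter on low values and 15 did not. All 8 tested differences were positive, as were 76.1% of those of all genes, and the relative median of the 8 was 0.13 (range 0.03 to 0.51 over 18 alternative settings). The filter counts all 16 libraries, so a gene at a low level can pass through the groups where it is high. Cd3g, for example, was under 1 FPKM in every vehicle library. The signs and median of the 8 are therefore given as values only. Cd3g, a subunit of the T cell receptor complex, was at 0.0746, 0.198, 0.0905 and 0.574 in vehicle and 1.60, 0.635, 1.46 and 1.30 with the antibody, a difference of 0.86 (SE 0.33, adjusted p = 0.158). It was the 1 tested member of 8 that was higher at an unadjusted p under 0.05, a smaller share than the 23.5% of all genes. The receptor beta constant gene Trbc2 was at 0.122, 1.04, 0.392 and 0.535 in vehicle and 1.96, 1.39, 3.33 and 1.57 with the antibody, a difference of 1.00 (SE 0.51), and Trbc1, a near-identical copy whose reads may have been split with Trbc2, differed by 0.55 (SE 0.35).

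In 6 of the 23 markers, among them Cd3g, Trbc1 and Trbc2 and, under the filter, Cd2 and Lat, every antibody library lay above every vehicle library. That share compares with 3.39% of tested genes and 3.00% of the 20051 genes under the filter; none of the 23 lay wholly below. After scaling the number was 3 of 23, against 3.10% and 1.95%. The summed FPKM of the 23 markers was 8.34, 11.9, 6.33 and 10.6 in vehicle and 15.5, 14.8, 21.6 and 15.7 with the antibody. After scaling the sums overlapped, from 8.77 to 13.6 in vehicle and from 13.3 to 21.2 with the antibody. In bulk tumour RNA, more T cells and more RNA per T cell cannot be told apart.

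Cd8a, Cd4, Foxp3, Gzmb and Ifng had overlapping groups. Cd8a was at 0.202, 0.282, 0.190 and 0.585 in vehicle and 0.377, 0.285, 0.98 and 0.735 with the antibody (exact permutation p = 0.171). Cd4 was at 0.563, 0.784, 0.342 and 0.449 and then at 0.408, 0.387, 0.524 and 1.42 (exact p = 0.743), and Foxp3, the factor of regulatory T cells, was at 0.190 FPKM or less in all 8 libraries (exact p = 0.943). Gzmb, granzyme B, was at 0.298, 0.433, 0.0746 and 0.599 in vehicle and 0.718, 0.250, 0.766 and 0.433 with the antibody, a difference of 0.19 (SE 0.22). Ifng was listed at 0 in all 4 vehicle libraries and at 0.0409, 0.265, 0.0793 and 0 with the antibody (exact p = 0.143).

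Of 16 cytotoxic and natural killer genes, 5 passed the filter and none had an unadjusted p under 0.05. Klrd1, which encodes CD94 of natural killer and cytotoxic T cells, stood apart under the filter, at 0.0419, 0.191, 0.186 and 0.371 in vehicle and 0.536, 0.397, 0.794 and 0.486 with the antibody. Ncr1 and Eomes were the other members of that list whose groups did not overlap, and 1 of 16 was apart after scaling. Among 14 exhaustion and checkpoint genes Ctla4, Tox and Btla lay wholly above vehicle, each under 1 FPKM, and 1 of 14 did so after scaling. The shares of all genes wholly above vehicle were 3.39% of tested genes and 3.00% of those under the filter, and 3.10% and 1.95% after scaling. Entpd1, which encodes the ectonucleotidase CD39, differed by 0.55 (SE 0.24, adjusted p = 0.175), the 1 member of 7 tested under 0.05.

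Cxcl9, the interferon-induced chemokine that attracts T cells through CXCR3, was at 0.65, 1.19, 0.543 and 1.11 in vehicle and 3.41, 1.67, 2.01 and 3.89 with the antibody. The groups did not overlap, but the gene varied widely over the 16 libraries, and the difference of 0.97 (SE 0.71) had an adjusted p of 0.397. Cxcr6, the receptor of tissue T cells for Cxcl16, was at 0.425, 0.915, 0.191 and 0.978 in vehicle and 1.62, 1.32, 1.17 and 1.37 with the antibody, a difference of 0.57 (SE 0.26, adjusted p = 0.185). Cxcl9 and Cxcr6 were the 2 of 12 T cell chemokine genes whose groups were apart, on both scales. The shares wholly above vehicle were 3.39% of tested genes and 3.00% of those under the filter, and 3.10% and 1.95% after scaling. Cxcr6 was under 1 FPKM in every vehicle library, so it passed the filter through other groups. Cxcl10, which shares the receptor CXCR3, differed by -0.21 (SE 0.31), and Cxcl16, Ccl3 and Ccl4 also had negative differences.

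**Figure D2:**
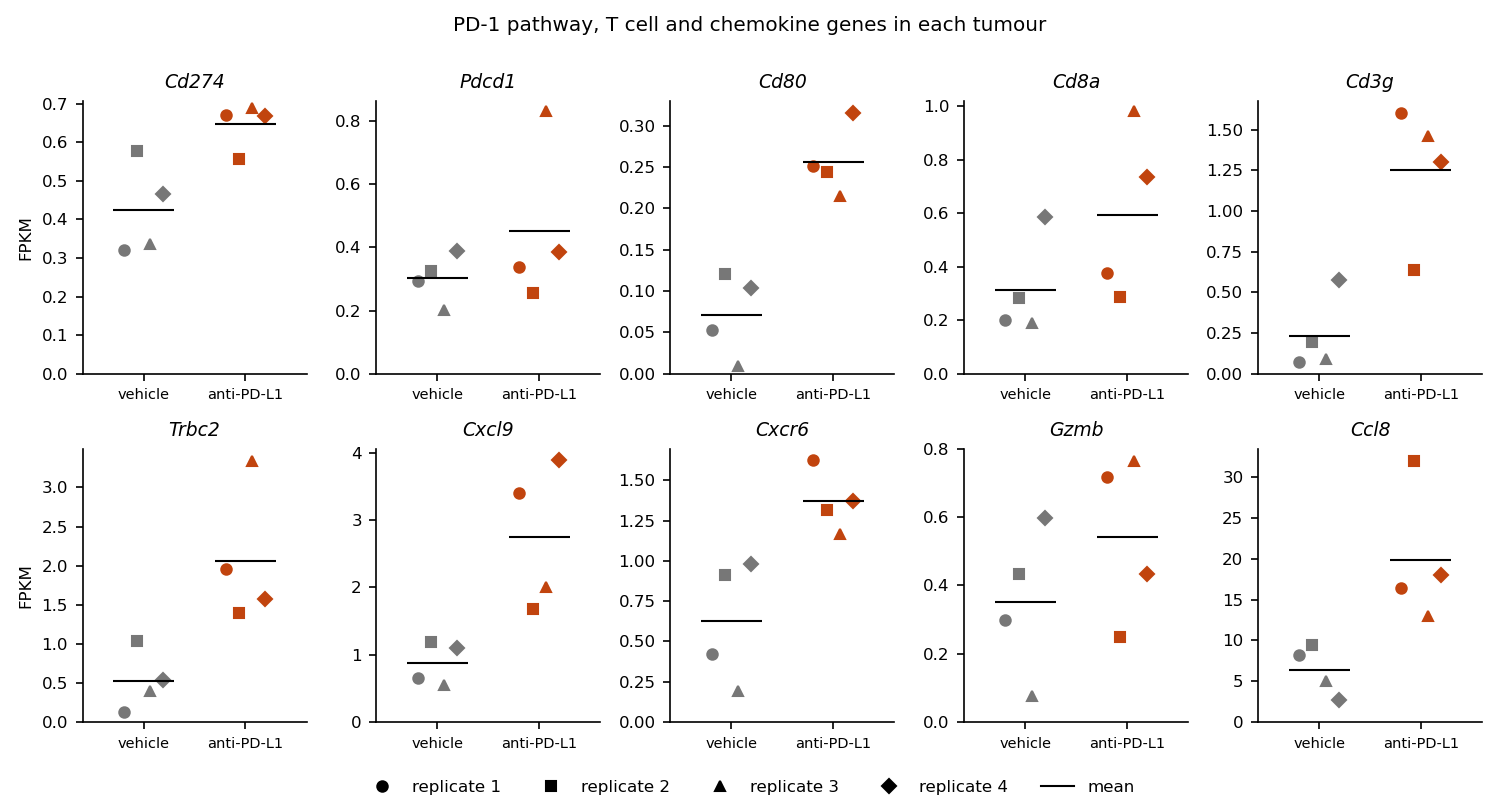
FPKM (vertical axes, from 0) of 10 genes of the PD-1 pathway, T cells and chemokines in the 4 vehicle and 4 anti-PD-L1 libraries, 1 symbol per replicate, with a line at the mean. Cd80, Cd3g, Trbc2, Cxcl9, Cxcr6 and Ccl8 show no overlap between the groups, while Cd274, Pdcd1, Cd8a and Gzmb overlap.

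Of 22 tested interferon-gamma and class I genes, 20 had positive differences, where 76.1% of all genes did, and the median was 0.48. None was higher at an unadjusted p under 0.05 and 1 was lower, where 23.5% of all genes were higher and 1.07% lower. The lower gene was Tapbp, the peptide-loading protein tapasin, at 111, 153, 90.3 and 76.7 in vehicle and 65.9, 57.3, 85.1 and 65.8 with the antibody, a difference of -0.61 (SE 0.28). After scaling 0 were higher and 2 lower, against 11.4% and 12.2% of all genes. With genes under the filter counted, 4 of 24 lay wholly above vehicle, among them Gbp5, Gbp7 and Irgm2, against 3.39% of tested genes and 3.00% of those under the filter. After scaling 1 did, against 3.10% and 1.95%. The relative median of the list was 0.18, with a range of 0.07 to 0.25 over 18 alternative settings. Those 18 leave out the fit without the filter, which gave 0.45. None of 8 class II genes and none of 24 type I interferon genes had an unadjusted p under 0.05, against the same shares of all genes. The relative median of the type I list was -0.18 (range -0.30 to -0.06), but 0.09 without the filter.

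Among macrophage and monocyte markers the chemokine gene Ccl8 had the lowest p. Ccl8, a ligand of monocyte chemokine receptors (chr11:82115185-82116799, plus strand), was at 8.27, 9.42, 4.98 and 2.64 in vehicle and 16.4, 32.0, 12.9 and 18.0 with the antibody, a difference of 1.54 (SE 0.42, adjusted p = 0.158). The mean was 6.33 ± 3.09 FPKM in vehicle and 19.8 ± 8.39 FPKM with the antibody (SD, n = 4 each), with no overlap, and vehicle 4 was the lowest library. The receptor gene Ccr2 of inflammatory monocytes was at 0.572, 0.895, 0.344 and 0.581 in vehicle and 1.30, 3.66, 1.15 and 1.23 with the antibody, a difference of 0.76 (SE 0.33).

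Csf1r, the receptor for the macrophage growth factor CSF1, went the other way, at 21.2, 30.8, 19.9 and 16.4 in vehicle and 16, 13.8, 16.2 and 14.7 with the antibody, a difference of -0.48 (SE 0.22, adjusted p = 0.191). Of the 23 macrophage and monocyte markers, all tested, 3 were higher at an unadjusted p under 0.05 (Ccl8, Ccr2 and Ccl7) and 1 was lower (Csf1r), where 23.5% of all genes were higher and 1.07% lower. After scaling 1 was higher and 2 were lower, against 11.4% and 12.2%, and without vehicle 3 the numbers were also 1 and 2. The complement genes C1qa, C1qb and C1qc differed by 0.06, -0.06 and -0.07, and the summed level of the 23 markers overlapped fully, at 483 to 866 FPKM in vehicle and 511 to 956 FPKM with the antibody. Igkc, the immunoglobulin kappa constant gene, was at 0.836, 1.92, 1.28 and 0.519 in vehicle and 4.76, 2.33, 5.20 and 5.35 with the antibody, a difference of 1.34 (SE 0.66), without overlap. It was the 1 of 12 B and plasma cell genes wholly above vehicle, against 3.39% of tested genes. After scaling 0 of 12 lay wholly above and 1 wholly below, against 3.10% and 3.18%. The relative median of the 5 tested members was -0.05.

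The antibody was also given with sonidegib, and the combination minus sonidegib contrast shares no library with anti-PD-L1 minus vehicle. It too had 0 genes (0%) with an adjusted p under 0.05 in limma, and at an unadjusted p under 0.05 326 genes (2.16%) were higher and 321 (2.13%) lower. In that contrast 5 of the 8 tested T cell markers were higher at an unadjusted p under 0.05 and none lower, with Cd3g at 1.30 (SE 0.33, adjusted p = 0.959), Trbc2 at 1.23 (SE 0.51) and Trbc1 at 1.09 (SE 0.35). The filter that these 8 passed also counts the combination libraries, so the count of 5 is not independent of their level there. Ccl8 differed by 1.74 (SE 0.42), Ccr2 by 1.21 (SE 0.33), Cxcr6 by 0.63 (SE 0.26) and Cxcl9 by 1.57 (SE 0.71). For these 7 genes both contrasts were positive, and the interaction, which tests whether the antibody's difference changed with sonidegib, lay between 0.06 and 0.60. The 7 were named with their anti-PD-L1 minus vehicle differences known, so the shared sign is given as values only. Ccr2 and Cxcr6, under 1 FPKM in every vehicle library, also passed the filter through other groups.

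For antigen presentation genes the antibody's median difference was larger in value with sonidegib present, but the interaction did not separate the 2 effects. It was 1.05 against 0.42 without sonidegib for class II genes, and 0.65 against 0.48 for interferon-gamma and class I genes. Of 8 class II genes, 6 were higher at an unadjusted p under 0.05 in combination minus sonidegib against 0 in anti-PD-L1 minus vehicle, with H2-Aa at 1.81 (SE 0.66) against 0.55 (SE 0.66). Of the 22 interferon-gamma and class I genes, 6 were higher against 0, with B2m at 1.37 (SE 0.49) against 0.80 (SE 0.49). Of all genes 2.16% were higher in combination minus sonidegib and 23.5% in anti-PD-L1 minus vehicle. The difference of these effects was tested in the interaction, where 0 of the 8 class II and 0 of the 22 interferon-gamma genes had an unadjusted p under 0.05. Combination 1 was low for several of these genes, with Cd3g at 0.68 FPKM against 3.29 to 6.34 in combination 2 to 4.

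Genes of cell division lay above the median gene. All 28 mitosis genes were tested and all 28 differences were positive, from 0.08 to 1.48 with a median of 0.86, which is 0.56 above the median of all genes (range 0.38 to 0.81 over 18 alternatives). At an unadjusted p under 0.05, 18 of 28 were higher, against 23.5% of all genes, and 14 of 28 were after scaling, against 11.4%. None passed at an adjusted p under 0.05 with all libraries, whereas 19 of 28 did without vehicle 4 (26.0% of all genes). With library weights, which were low for vehicle 3 and vehicle 4, 13 passed (2024 of all 15105 genes). Without vehicle 3, 12 of 28 were higher at an unadjusted p under 0.05 (7.38% of all genes).

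None of the 28 genes had groups that were apart, and the overlap came mainly from vehicle 4. For 27 of 28 vehicle 4 was above the lowest antibody library, and for 22 of 28 it was the highest vehicle library. Leaving it aside, all antibody libraries were above vehicle 1 to 3 for 16 of 28 genes (30.6% of all genes). The median of the 28 genes relative to each library's own median gene was -0.22, -0.72, -0.57 and 0.18 in the vehicle libraries and 0.03, 0.45, 0.04 and 0.45 in the antibody libraries, so that vehicle 4 lay between the antibody libraries.

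Mki67, which encodes the proliferation antigen Ki-67, was at 2.99, 2.95, 1.22 and 8.92 in vehicle and 11.2, 16.3, 5.34 and 9.87 with the antibody, a difference of 1.35 (SE 0.40, adjusted p = 0.158). Tpx2, a spindle assembly factor, was at 3.73, 1.97, 1.02 and 6.24 and then at 7.0, 9.50, 5.78 and 8.48, a difference of 1.18 (SE 0.32). Ccnb1, cyclin B1, was at 8.89, 3.70, 1.88 and 12.9 and then at 10.9, 18.1, 11.6 and 18.7, a difference of 1.23 (SE 0.37). In Mki67 and Tpx2 vehicle 4 overlapped the antibody group through anti-PD-L1 3, and in Ccnb1 it lay above 2 antibody libraries.

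The members differed among themselves. Birc5, the gene of survivin, differed by 1.48 (SE 0.52), Prc1, which bundles midzone microtubules, by 1.20 (SE 0.37), and Ndc80, a kinetochore subunit, by 0.99 (SE 0.31). The mitotic kinase gene Plk1 differed by 0.11 (SE 0.37) and the cell cycle transcription factor genes Foxm1 and Mybl2 by 0.27 (SE 0.29) and 0.08 (SE 0.25). Plk1, for example, was at 12.0, 6.60, 3.71 and 6.63 in vehicle and 4.63, 7.43, 6.04 and 13.3 with the antibody, and the highest vehicle library was vehicle 1, not vehicle 4.

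Promoters of 4 of these genes show how far they share sequence. Late cell cycle promoters are known to carry CCAAT boxes, bound by the factor NF-Y, and the cell cycle genes homology region (CHR), TTTGAA, bound by the DREAM and MuvB complexes. The 150 bases before the annotated start are given from RefSeq on GRCm38.p6, 5′ to 3′ on the gene's strand, with CCAAT and TTTGAA on either strand in capitals; Mki67 has both motifs, Ccnb1 and Prc1 have CCAAT boxes, and Ndc80 has neither in this window.
Mki67, chr7:135716380-135716529, minus strand: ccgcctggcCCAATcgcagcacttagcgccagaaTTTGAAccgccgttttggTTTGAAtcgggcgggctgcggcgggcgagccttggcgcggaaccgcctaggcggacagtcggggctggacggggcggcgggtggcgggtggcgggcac
Ccnb1, chr13:100786487-100786636, minus strand: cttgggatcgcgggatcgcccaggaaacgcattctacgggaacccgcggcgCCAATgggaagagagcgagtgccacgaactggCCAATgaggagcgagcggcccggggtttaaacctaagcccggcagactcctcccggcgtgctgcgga
Prc1, chr7:80294301-80294450, plus strand: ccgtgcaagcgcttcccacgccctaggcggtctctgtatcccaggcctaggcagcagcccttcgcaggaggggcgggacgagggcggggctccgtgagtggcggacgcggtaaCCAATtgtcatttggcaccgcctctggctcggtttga
Ndc80, chr17:71526858-71527007, minus strand: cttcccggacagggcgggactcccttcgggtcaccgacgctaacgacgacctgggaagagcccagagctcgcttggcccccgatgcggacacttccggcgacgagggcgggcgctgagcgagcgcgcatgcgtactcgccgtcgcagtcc
Prc1 has 2 promoter entries, of which the first is shown. In the 250 bases before the start, CCAAT was present in 18 of the 23 mitosis genes with an entry (78.3%), in 13 of 22 replication genes (59.1%) and in 34.5% of 27025 genes. TTTGAA was present in 7 of 23 (30.4%), 3 of 22 (13.6%) and 16.3%, and the motifs do not overlap each other. A match is a description of letters and not a binding site.

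DNA replication genes followed with smaller differences. All 26 tested members had positive differences with a median of 0.62, a relative median of 0.32 (range 0.17 to 0.48), and 12 of 26 were higher at an unadjusted p under 0.05 (23.5% of all genes). After scaling 10 were (11.4%), and without vehicle 3 there were 8 (7.38%). Gins1, a subunit of the replicative helicase, was at 1.01, 0.724, 0.342 and 2.05 in vehicle and 3.01, 3.32, 2.14 and 3.08 with the antibody, a difference of 0.99 (SE 0.30). Rfc4, a subunit of the clamp loader, was at 3.68, 2.57, 1.54 and 5.48 and then at 7.11, 8.07, 5.66 and 9.76, a difference of 1.07 (SE 0.37). Gins1 and Rfc4 were the 2 of 26 whose groups were apart, against 3.39% of tested genes wholly above vehicle. After scaling 3 of 26 were, against 3.10%. Rrm1, the large subunit of ribonucleotide reductase, differed by 1.13 (SE 0.32), while E2f1 differed by 0.09 (SE 0.20) and Ccne1 by 0.26 (SE 0.31).

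**Figure D3:**
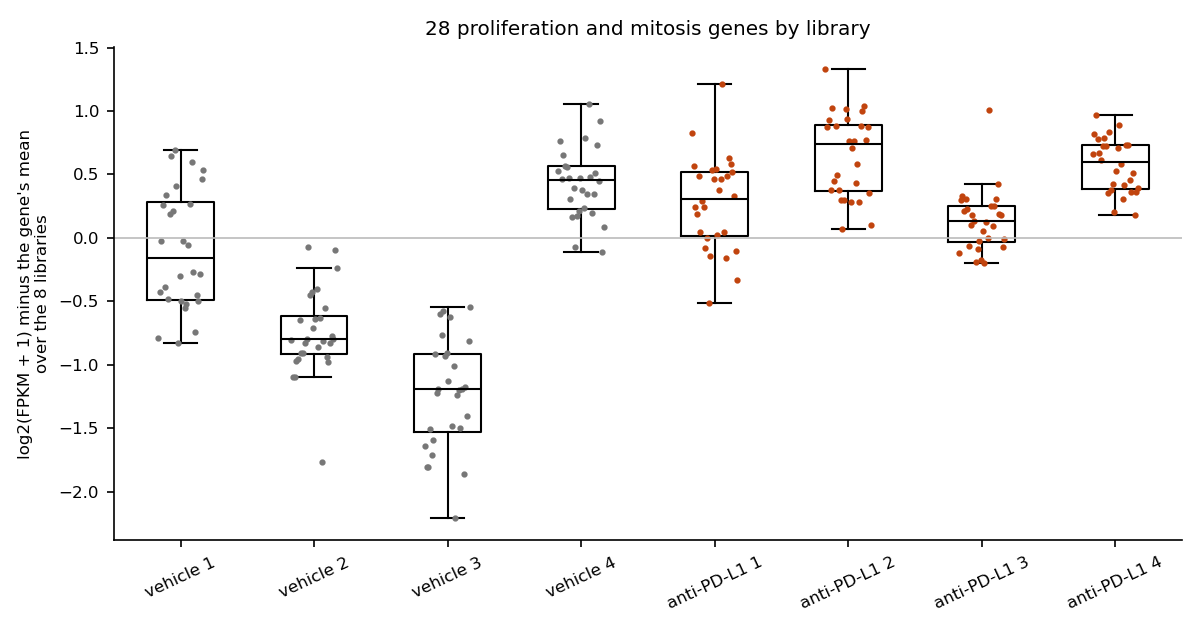
For the 28 proliferation and mitosis genes, the vertical axis gives log2(FPKM + 1) minus the gene's mean over the 8 libraries, with 1 point per gene, a box from the first to the third quartile with the median as a line, and whiskers to the farthest point within 1.5 times the box. Vehicle 2 and vehicle 3 lie lowest, and vehicle 4 lies with the 4 anti-PD-L1 libraries.

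With sonidegib present the division genes did not have this difference. In combination minus sonidegib 0 of 28 mitosis genes were higher at an unadjusted p under 0.05 and 4 were lower, against 2.16% and 2.13% of all genes. Their median was -0.30 where all genes had -0.07. The interaction was negative at an unadjusted p under 0.05 for 20 of 28 mitosis genes and 8 of 26 replication genes, against 1420 of all genes (9.40%), and for 0 genes of either list at an adjusted p under 0.05. Sonidegib minus vehicle, which shares the vehicle libraries and so is set out here only as values, had 17 of 28 higher (26.0% of all genes), and in anti-PD-L1 minus sonidegib no mitosis gene had an unadjusted p under 0.296.

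The top genes of the antibody comparison were read in the same contrast. Of the 12 higher genes 4 had a positive difference in combination minus sonidegib, where 40.0% of all genes did, and 8 lay above that contrast's median of -0.07. Itprid1 was the 1 gene of the 12 higher there too at an unadjusted p under 0.05. It was at 0.20, 1.17, 0.95 and 0.33 FPKM with sonidegib and 1.92, 1.44, 1.94 and 6.0 FPKM with the combination, a difference of 1.11 (SE 0.34), and the groups did not overlap. Of the 12 lower genes 10 had a negative difference, where 60.0% of all genes did, and none had an unadjusted p under 0.05. The interaction had an unadjusted p under 0.05 for 11 of the 12 higher genes, all negative, and for 3 of the 12 lower genes, all positive. Over all genes it did so on the negative side for 9.40% and on the positive side for 0.477%, and the 24 genes were chosen on 1 of its 2 contrasts.

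Alkal2 was the 1 gene (0.00662%) with an interaction at an adjusted p under 0.05. It was at 9.92, 8.44, 5.71 and 11 FPKM with sonidegib and 1.29, 1.69, 1.19 and 1.51 FPKM with the combination, so that adding the antibody went with a lower level there and a higher level without sonidegib. The interaction was -3.68 (SE 0.56, adjusted p = 0.049), and its adjusted p was between 0.0129 and 0.676 over 26 alternatives, above 0.05 in 20 of them, while the value stayed negative in all 26. Against sonidegib directly, 0 genes (0%) differed from anti-PD-L1 at an adjusted p under 0.05 in limma, with 82 higher (0.543%) and 234 lower (1.55%) at an unadjusted p under 0.05.

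**Figure D4:**
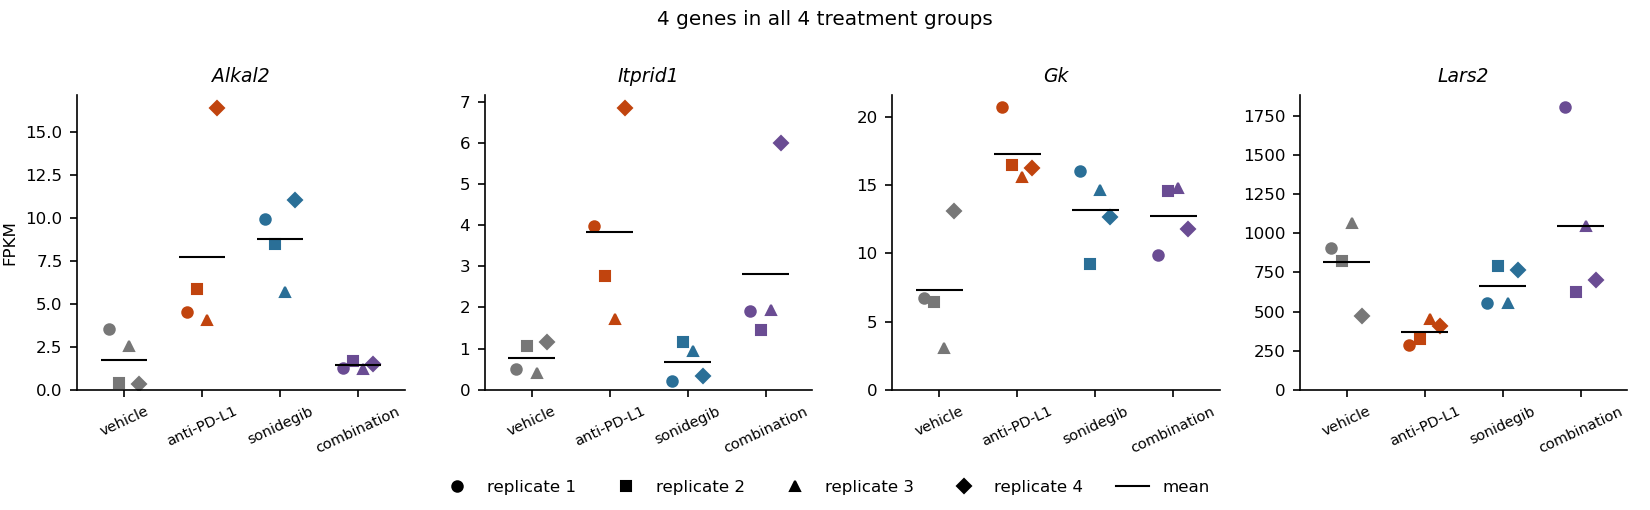
FPKM (vertical axes, from 0) of Alkal2, Itprid1, Gk and Lars2 in the 4 libraries of each of the 4 treatments, 1 symbol per replicate, with a line at the mean. Alkal2 is at 1.19 to 1.69 FPKM in the combination and at 5.71 to 11 FPKM with sonidegib; Itprid1 is higher in both groups that received the antibody.

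Stromal genes were uneven. Fap, the fibroblast activation protein, was at 0.567, 0.248, 0.171 and 0.567 in vehicle and 1.46, 2.37, 0.822 and 0.848 with the antibody, a difference of 0.74 (SE 0.23, adjusted p = 0.158). The matricellular gene Postn was at 7.97, 11.1, 7.75 and 22.4 and then at 36.8, 50.1, 22.6 and 23.9, a difference of 1.42 (SE 0.71). S100a4 was at 2.30, 2.68, 1.22 and 3.80 and then at 5.64, 9.19, 6.67 and 3.80, a difference of 1.07 (SE 0.36). Fap, Postn and S100a4 were the 3 of 24 fibroblast and matrix genes without overlap, on both scales, although the lowest S100a4 value with the antibody and the highest in vehicle agree to 3 digits. Of all tested genes 3.39% lay wholly above vehicle, and 3.10% after scaling. The small leucine-rich proteoglycan genes Dcn and Lum differed by 1.38 (SE 0.55) and 1.17 (SE 0.51), while the collagen genes Col1a1 and Col1a2 differed by -0.17 and 0.02. Of the 24 genes, 5 were higher at an unadjusted p under 0.05, against 23.5% of all genes, and after scaling 2 were higher and 2 lower. Anti-PD-L1 2 had the highest value of the 8 libraries for Fap, Postn, S100a4, Dcn and Lum. It also had the highest sum of the 11 muscle genes, 744 FPKM, and of 12 fat cell genes, which summed to 3.43 to 37.5 FPKM in vehicle and 7.36 to 127 FPKM with the antibody; no muscle or fat gene was at 0 in all 8 libraries, and their part in the result was not tested.

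Among ceramide and Hedgehog genes, the shares that were higher before scaling were near or below that of all genes. Of 28 tested genes of ceramide and sphingolipid metabolism 8 were higher at an unadjusted p under 0.05, close to the 23.5% of all genes. After scaling 3 were higher and 5 lower, against 11.4% and 12.2% of all genes. Sptssa, a small activating subunit of serine palmitoyltransferase, was at 7.98, 8.13, 4.56 and 17.8 in vehicle and 22.6, 21.8, 19.6 and 15.7 with the antibody, a difference of 1.11 (SE 0.36), with vehicle 4 inside the antibody range. Cers6, a ceramide synthase, differed by 0.12 (SE 0.27), and Cers4, under the filter, did not separate (exact permutation p = 0.229).

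The Hedgehog list, with 9 tested genes, had 1 higher at an unadjusted p under 0.05 (Gas1, 0.47) and a relative median of -0.43 (range -0.54 to -0.13). After scaling 0 of the 9 were higher and 3 lower, against 11.4% and 12.2% of all genes, so the share that was lower exceeded that of all genes. The Hedgehog receptor gene Ptch1 differed by 0.11, and by -0.19 after scaling. Of 15 genes of the p53 response 3 were higher at an unadjusted p under 0.05, against 23.5% of all genes. After scaling 0 were higher and 2 lower, and without vehicle 3 none was higher and 1 was lower. Gadd45a, a growth arrest gene, was at 6.38, 3.90, 2.72 and 5.30 in vehicle and 8.13, 6.49, 7.16 and 7.72 with the antibody, a difference of 0.63 (SE 0.24), and Ccng1, cyclin G1, differed by 1.14 (SE 0.45), while Cdkn1a, the gene of p21, differed by -0.04 (SE 0.45). Gadd45a, Ccng1 and Fas were the 3 of 15 members without overlap, all above vehicle, against 3.39% of tested genes. After scaling 1 of 15 lay wholly above, against 3.10%.

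Hypoxia, immediate early and luminal genes lay under the median gene. None of 22 hypoxia and glycolysis genes and none of 17 immediate early genes had an unadjusted p under 0.05, with relative medians of -0.28 and -0.31. Of all genes 23.5% were higher and 1.07% lower. After scaling 0 of either list were higher, and 2 and 1 were lower, against 11.4% and 12.2% of all genes. Of 15 tested luminal epithelial genes 1 was lower, Erbb2, against 1.07% of all genes, and the relative median was -0.29. After scaling 0 of the 15 were higher and 3 were lower, against 11.4% and 12.2%. On that scale 3 of the 15 lay wholly below vehicle, against 3.18% of tested genes. The casein gene Csn1s1 was at 1.84, 1.18, 1.79 and 9.48 in vehicle and 13.5, 3.46, 15.9 and 317 with the antibody. The summed FPKM of 11 milk genes, Csn1s1 among them, was 5697 in anti-PD-L1 4, the lowest of the 4 antibody libraries, and 12662 in anti-PD-L1 1, the highest. Of 23 cytosolic ribosomal protein genes 9 were higher at an unadjusted p under 0.05, against 23.5% of all genes, with a relative median of 0.33 (range 0.22 to 0.64). After scaling 4 were higher, against 11.4%, and without vehicle 3 there were 3, against 7.38%.

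**Figure D5:**
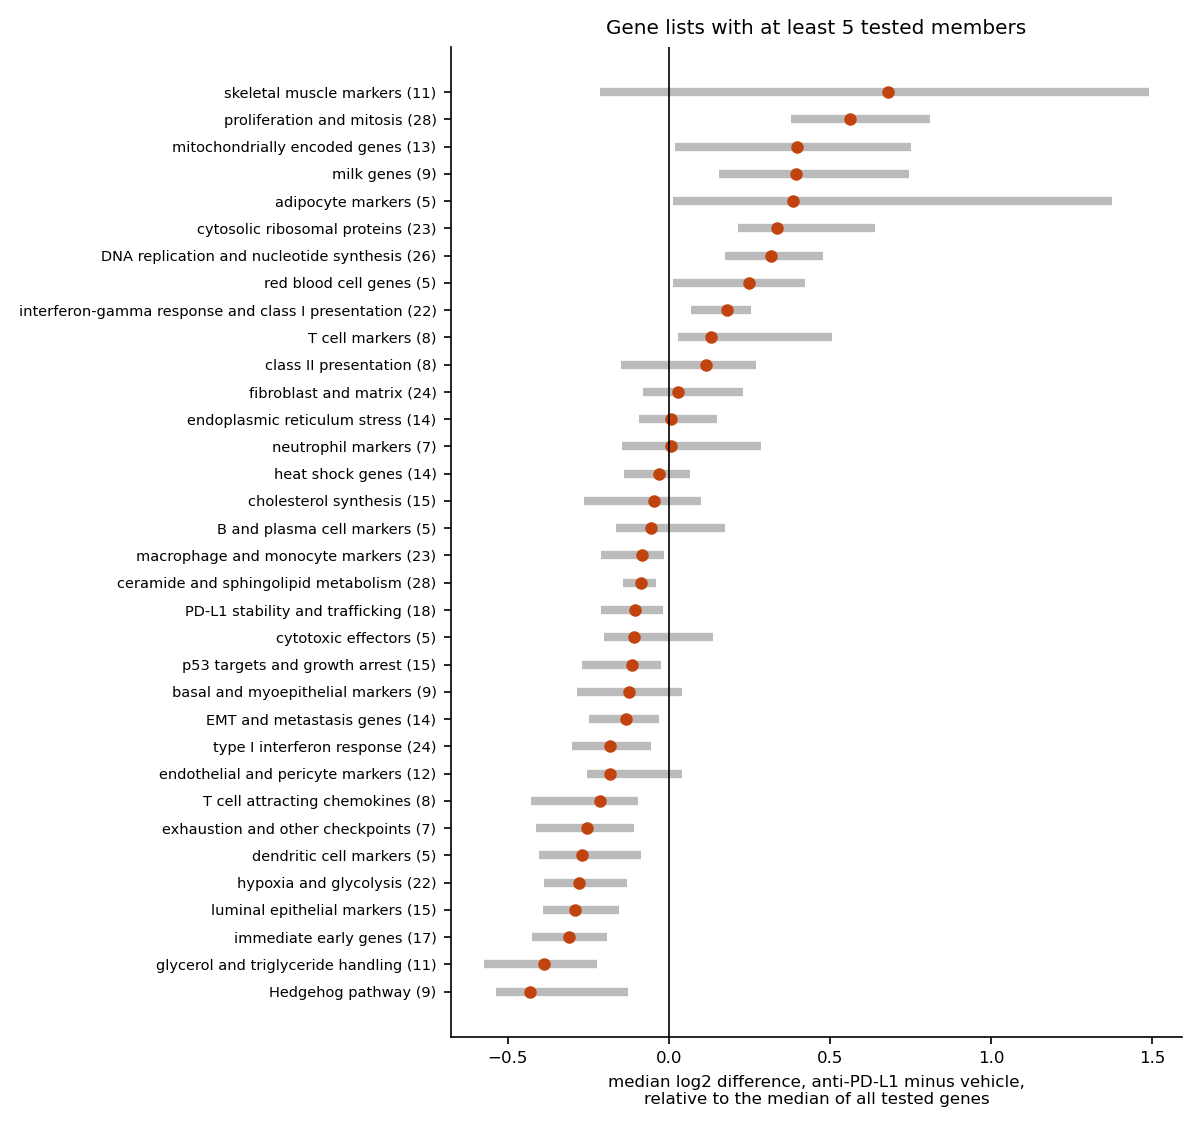
For each gene list with at least 5 tested members (number in brackets), the point gives the median log2 difference, anti-PD-L1 minus vehicle, relative to the median of all tested genes, and the grey bar spans the values over 18 alternative settings. The mitosis list has 0.56 with a bar from 0.38 to 0.81, and the Hedgehog list has -0.43 with a bar from -0.54 to -0.13. The bars leave out the fit without the filter, where some lists changed sign. The type I interferon list was at 0.09 there and the macrophage list at 0.19.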

How the data were processed

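The authors deposited 1 table of FPKM for 55146 genes and 16 libraries, 4 per treatment, made with TopHat and Cufflinks on GRCm38.p6 and mm10, per the submitters' processing notes; no version or annotation is named there. FPKM divides by transcript length and by each library's total, so a few abundant genes lower all others: the 10 most abundant genes took 36.4% to 55.8% of the total over the 8 libraries compared. The labels call the RNA polyA and the libraries rRNA-depleted and stranded.

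Genes at 1 FPKM or more in at least 4 libraries were fitted as log2(FPKM + 1) with limma 3.58.1 in R 4.3.3, with 1 mean per treatment over 16 libraries, trended and robust variances, two-sided tests and Benjamini-Hochberg adjustment over 15105 genes at 0.05. Single panel genes under the filter were tested with exact permutation tests. Depth was estimated from 4959 single-transcript genes. GC and length came from GENCODE M21, which matched 54547 gene identifiers. In data simulated from these means, 42 of 100 genes changed by 1 on the log2 scale were recovered. Of 100 genes changed by 2, 94 were recovered, and 8 unchanged genes were called. Shifts of a whole library, as seen in the vehicle group, were not simulated. The rates therefore do not give the power of the comparison made here.

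The text names the 12 genes higher and the 12 lower with the lowest p (mean of at least 1 FPKM, above 0 in all 8 libraries, not a predicted or clone name), a panel of PD-1, T cell, Hedgehog and ceramide genes, and in each of 36 gene lists up to 4 members with a p under 0.15. Other genes were chosen after their values were seen. The comparison, its panel and its lists were chosen with earlier results of these data known. Some genes that this rule selects are not reported here. Irf8, Cdt1, Gins2, Acta1 and Rpl13 were not analysed here.

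Alternatives changed the scaling, filter, pseudocount (0.1), libraries in the fit, library weights, GC and length trends, replicate block and replicates. The ranges of list medians over 18 alternatives leave out the fit without the filter. Fits that combine the block with GC and length trends, and list counts without vehicle 3 or 4, were added after seeing the data.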

Additional observations from a re-analysis of the deposited data

Results flagged for a closer look

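In groups of 4 libraries, 1 library stood far from the other 3 in 9 of 237 checks of named genes, where chance gives about 1 in 20. In the anti-PD-L1 group, replicate 2 was high for Ccr2 (3.66 FPKM, others 1.15 to 1.30) and for Hmgcs1 (21.6 FPKM, others 11.5 to 12.3) and low for Igkc (2.33 FPKM, others 4.76 to 5.35). Replicate 3 was low for Cdkal1 (8.03 FPKM, others 11.5 to 12.1) and for Ccng1 (16.2 FPKM, others 29.8 to 31.4). Replicate 4 was high for Cd4 (1.42 FPKM, others 0.387 to 0.524) and for Csn1s2a (11 FPKM, others 0.566 to 0.878) and low for Emcn (0.968 FPKM, others 2.81 to 3.28). In the vehicle group, replicate 4 was high for Csn1s1 (9.48 FPKM, others 1.18 to 1.84).

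The antibody's effect on Alkal2 differed with and without sonidegib: the interaction was -3.68 on the log2(FPKM + 1) scale (limma adjusted p = 0.049; 0.0129 to 0.676 over 26 alternatives).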

How the results depend on the processing

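The number of genes with an adjusted p under 0.05 between anti-PD-L1 and vehicle was 0 in limma with all libraries, 2 with only the groups compared, 2024 with array weights, and 0 to 3927 when single replicates were left out, the highest without vehicle 4. Genes higher at an unadjusted p under 0.05 numbered 3550, and 1726 after median-of-ratios scaling, 1818 after quantile normalization and 1115 to 5575 with single replicates left out (without vehicle 3 and vehicle 4; 2044 without anti-PD-L1 1 and 2270 without anti-PD-L1 2). Genes lower numbered 162, and 1841, 1713, 341 without the filter, 943 with array weights, 100 with the GC trend removed, 99 with GC and length trends removed, and 62 to 408 with single replicates left out (92, 62, 356 and 408 without vehicle 1 to 4 and 83, 91, 95 and 247 without anti-PD-L1 1 to 4). Anti-PD-L1 against sonidegib had 0 genes, 2 with only the groups compared, 3 with array weights and 0 to 0 with replicates left out. The interaction had 1 gene and 0 after either scaling, without the filter, with a mean filter, with a pseudocount of 0.1, with array weights and with the replicate block, alone or with GC and length trends removed, and 0 to 5 with single replicates left out, the highest without combination 1. Of the 10 panel genes under the filter, 1 separated fully, and 1 to 3 did with single replicates left out. The cause of these changes was not tested.

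Of 123 named genes, differences changed sign in 23 fits. Median-of-ratios scaling gave -0.11 for Cmtm6, -0.17 for Cers6, -0.19 for Ptch1, -0.18 for Rgmb and -0.12 for Ltk. Quantile normalization gave -0.0896 for Gzmb, -0.21 for Cers6, -0.24 for Ptch1, -0.22 for Rgmb, -0.13 for Zbtb46 and -0.19 for Ltk. Array weights gave -0.15 for Cers6 and -0.0716 for Ptch1. Removing the GC trend gave -0.10 for Cers6, and removing GC and length trends, with the replicate block or not, gave -0.0645 for Cers6 and -0.0347 for Gzmb. With single replicates left out, Cers6 ranged from -0.0689 (without anti-PD-L1 2) to 0.32 and was -0.0133 without vehicle 3, Ptch1 from -0.12 (without vehicle 3) to 0.22, Rgmb from -0.00206 (without vehicle 3) to 0.25, and Fosb from -0.76 to 0.0208 (without vehicle 2).

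The labels do not say whether replicate numbers pair vehicle and anti-PD-L1 libraries. Deviations of same-numbered libraries from their group means had correlations of -0.37 to 0.09. Shifts of whole libraries enter these values, so they cannot settle whether the libraries were paired. With the replicate block 0 genes had an adjusted p under 0.05, and 3248 were higher and 139 lower at an unadjusted p under 0.05. The estimated depth limits genes under about 0.1 FPKM, where a value rests on few fragments, and for 349 of the genes tested the value was 0 in 1 or more of the 8 libraries.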

Other observations

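Gene groups outside the comparisons above gave these values, again in log2(FPKM + 1), anti-PD-L1 minus vehicle, with no gene at an adjusted p under 0.05 in limma. In the heat shock list the mitochondrial chaperone gene Hspd1 differed by 1.04 (SE 0.32) and its cofactor Hspe1 by 1.21 (SE 0.43), the 2 of 14 higher at an unadjusted p under 0.05, where 23.5% of all genes were. The relative median of the list was -0.03, and after scaling 2 genes were higher and 3 lower. Hspe1 was at 49.9, 22.0, 11.2 and 70.0 FPKM in vehicle and 74.8, 64.8, 68.4 and 83.8 FPKM with the antibody, with vehicle 4 inside the antibody range. In cholesterol synthesis Idi1 differed by 1.10 (SE 0.34) and Hmgcs1 by 0.72 (SE 0.28), 2 of 15 genes, and after scaling 1 was higher and 3 were lower. In the endoplasmic reticulum stress list the chaperone Hsp90b1 differed by 1.06 (SE 0.38), 1 of 14 genes.

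Among vessel genes 3 of 12 were higher at an unadjusted p under 0.05, Pecam1 (0.55, SE 0.23), Emcn (0.65, SE 0.29) and the pericyte gene Rgs5 (0.87, SE 0.39), against 23.5% of all genes. After scaling 0 were higher and 1 lower, and without vehicle 3 none was higher and 1 was lower. Of 14 genes of epithelial-mesenchymal transition and metastasis 3 were higher, Zeb2 (0.69, SE 0.24), Lox (0.87, SE 0.33) and S100a4, and 1 was lower, Tgfb1, and after scaling 1 was higher and 2 were lower. Tgfb1 was at 12.9, 13.2, 6.39 and 6.20 FPKM in vehicle and 4.75, 6.08, 5.01 and 6.78 FPKM with the antibody, a difference of -0.62 (SE 0.26). Trp63, the factor of basal epithelium, was at 0.88, 0.876, 0.636 and 1.02 FPKM in vehicle and 1.10, 2.04, 1.23 and 8.93 FPKM with the antibody, without overlap and with anti-PD-L1 4 far above the rest. After scaling its groups overlapped. Pnpla2, the fat-releasing lipase, differed by -0.57 (SE 0.25) where Gk differed by 1.26. Of the mitochondrially encoded genes 3 of 13 were higher (1 after scaling), and none of the 7 neutrophil, 5 dendritic cell, 5 B and plasma cell and 5 red blood cell genes tested had an unadjusted p under 0.05.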
